A study of Mus musculus with 3 samples.

Results

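The replication-dependent histone genes of the mouse lie mainly in the Hist1 cluster of chromosome 13. Its main parts were taken here as every 1 kb bin of build mm9 in the 340 kb that start at 21800001 (the proximal block, 340 bins) and the 250 kb that start at 23615001 (the distal block, 250 bins), which is 590 of 2557590 usable bins of the genome. Bins are members by position alone. The series profiled mouse ES cells of strain C57BL/6, kept without feeders on gelatin in medium with serum and ESGRO, by chromatin immunoprecipitation and sequencing with 1 library per antibody. The labels give an in-house made mouse TET2 antibody, an OGT antibody from Novus and an antibody to histone H2B carrying GlcNAc on serine S112, and they name no treatment. An input or IgG library was not used here, so signal common to any antibody stays in each value. Since replicates are lacking, no difference between antibodies was tested, and each range in parentheses is a 95% exact interval for counting error alone.

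Replication-dependent histone genes encode the H1, H2A, H2B, H3 and H4 proteins that package newly made DNA. They are transcribed during S phase, have no introns, and give messages that end in a stem-loop in place of a poly(A) tail. In cycling cells the cluster gathers in a nuclear structure called the histone locus body, where the factor NPAT drives transcription. ES cells divide fast and spend much of the cycle in S phase. TET2 converts methylated cytosine to its oxidised forms, and OGT transfers GlcNAc to serines and threonines of nuclear proteins, histone H2B among them. The H2B genes of the cluster therefore encode the protein that the third antibody sees in its modified form.

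RefSeq (assembly GRCm38.p6) lists the histone genes of the cluster in order as a proximal run of 24, from H2bc13 to H2bc11, and a distal run of 30, from H4c8 to H1f1. The 54 genes are 6 of H1, 14 of H2A, 14 of H2B, 9 of H3 and 11 of H4, with 1 H2A pseudogene counted in each run. In the proximal run 19 histone genes come first, then 39 entries without a histone gene, 31 of them tRNA genes, and then 5 more histone genes. Between the runs the table holds 147 entries, of which 75 are vomeronasal receptor genes or pseudogenes (Vmn1r) and 46 are tRNA genes. The files use another build, so the genes are given here by order alone and no bin or peak is tied to a gene.

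Promoter sequence was found in RefSeq for 49 of the 54 genes, with 50 entries. The 120 bases just before the start of the first listed gene of each family are shown because a promoter is the regulatory part of these intronless genes. Capitals mark 3 motifs, searched on both strands. The first is TATAAA, the core of a TATA box. The CCAAT box, bound by the factor NF-Y, reads ATTGG on the opposite strand. The octamer ATTTGCAT is a site of the factor Oct-1.
H2bc13 (H2B): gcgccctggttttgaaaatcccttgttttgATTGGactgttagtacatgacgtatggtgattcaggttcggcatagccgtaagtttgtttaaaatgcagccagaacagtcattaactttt
H2ac13 (H2A): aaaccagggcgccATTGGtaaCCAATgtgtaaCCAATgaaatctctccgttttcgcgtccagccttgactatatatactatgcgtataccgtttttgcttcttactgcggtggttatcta
H3c10 (H3): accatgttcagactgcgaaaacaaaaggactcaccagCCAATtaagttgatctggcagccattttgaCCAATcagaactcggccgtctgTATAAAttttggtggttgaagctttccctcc
H4c11 (H4): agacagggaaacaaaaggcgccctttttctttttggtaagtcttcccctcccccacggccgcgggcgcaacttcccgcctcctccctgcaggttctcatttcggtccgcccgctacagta
H1f5 (H1): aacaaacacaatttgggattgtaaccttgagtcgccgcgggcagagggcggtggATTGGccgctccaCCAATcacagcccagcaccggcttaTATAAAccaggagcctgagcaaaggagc

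The promoters of the cluster carried these letters often. In the 250 bases before the start, CCAAT was present in 42 of 50 histone entries (84.0%) and in 33.8% of all 32851 promoters of the table. It was in every entry of H1 (6), H2A (12), H2B (14) and H3 (7), and in 3 of 11 H4 entries. TATAAA was in 24 of 50 (48.0%, against 12.4% of all promoters). ATTTGCAT, the octamer known from H2B promoters, was in 5 of 14 H2B and 4 of 12 H2A entries and in none of the H1, H3 or H4 entries, against 1.60% of all promoters. Many H2A and H2B genes are divergent neighbours, so their upstream windows can share bases. A match describes the letters and is not a bound site.

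In both blocks all 3 libraries held more reads than their own mean. A read was counted by its 5′ end, once per position and strand, moved 100 bp towards the fragment centre, and is called a position below. The proximal block held 642 TET2, 353 OGT and 689 H2B S112GlcNAc positions, a density of 1.89 per kb (1.74 to 2.04), 1.04 (0.933 to 1.15) and 2.03 (1.88 to 2.18). Against the mean density of each library this was 1.47-fold (1.35 to 1.58) for TET2, 1.41-fold (1.27 to 1.57) for OGT and 1.29-fold (1.19 to 1.39) for H2B S112GlcNAc.

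The distal block held 447 TET2, 261 OGT and 482 H2B S112GlcNAc positions, and the fold over the mean was 1.39 (1.26 to 1.52), 1.42 (1.25 to 1.61) and 1.23 (1.12 to 1.34). TET2 was 1.06 times as dense in the proximal as in the distal block (0.934 to 1.19). The same ratio was 0.994 (0.845 to 1.17) in the OGT library and 1.05 (0.934 to 1.18) in the H2B S112GlcNAc library. All 3 intervals include 1, and a difference of the size they allow was not detectable at this depth.

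The 1 Mb between the blocks, which starts at 22300001, lay below the mean in each library. There TET2 was at 0.693-fold (0.648 to 0.740), OGT at 0.738-fold (0.677 to 0.803) and H2B S112GlcNAc at 0.752-fold (0.710 to 0.796). Set against this interval, the proximal block was 2.11-fold denser (1.91 to 2.34) in TET2, 1.92-fold (1.67 to 2.19) in OGT and 1.71-fold (1.56 to 1.88) in H2B S112GlcNAc. The distal block was 2.00-fold denser (1.78 to 2.25), 1.93-fold (1.66 to 2.24) and 1.63-fold (1.46 to 1.81). The choice of flank matters: 1400 kb outside the blocks, as 700 kb from 21000001 and 700 kb from 23965001, was close to the mean at 0.984-fold, 1.02-fold and 1.01-fold. Bins with no position in any library made up 8.14% of the blocks, 13.5% of the interval and 12.2% of the genome. Without such bins the fold of the distal block was 1.55, 1.59 and 1.37 over the mean and 1.93, 1.86 and 1.57 over the interval, in the order TET2, OGT, H2B S112GlcNAc.

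**Figure D1:**
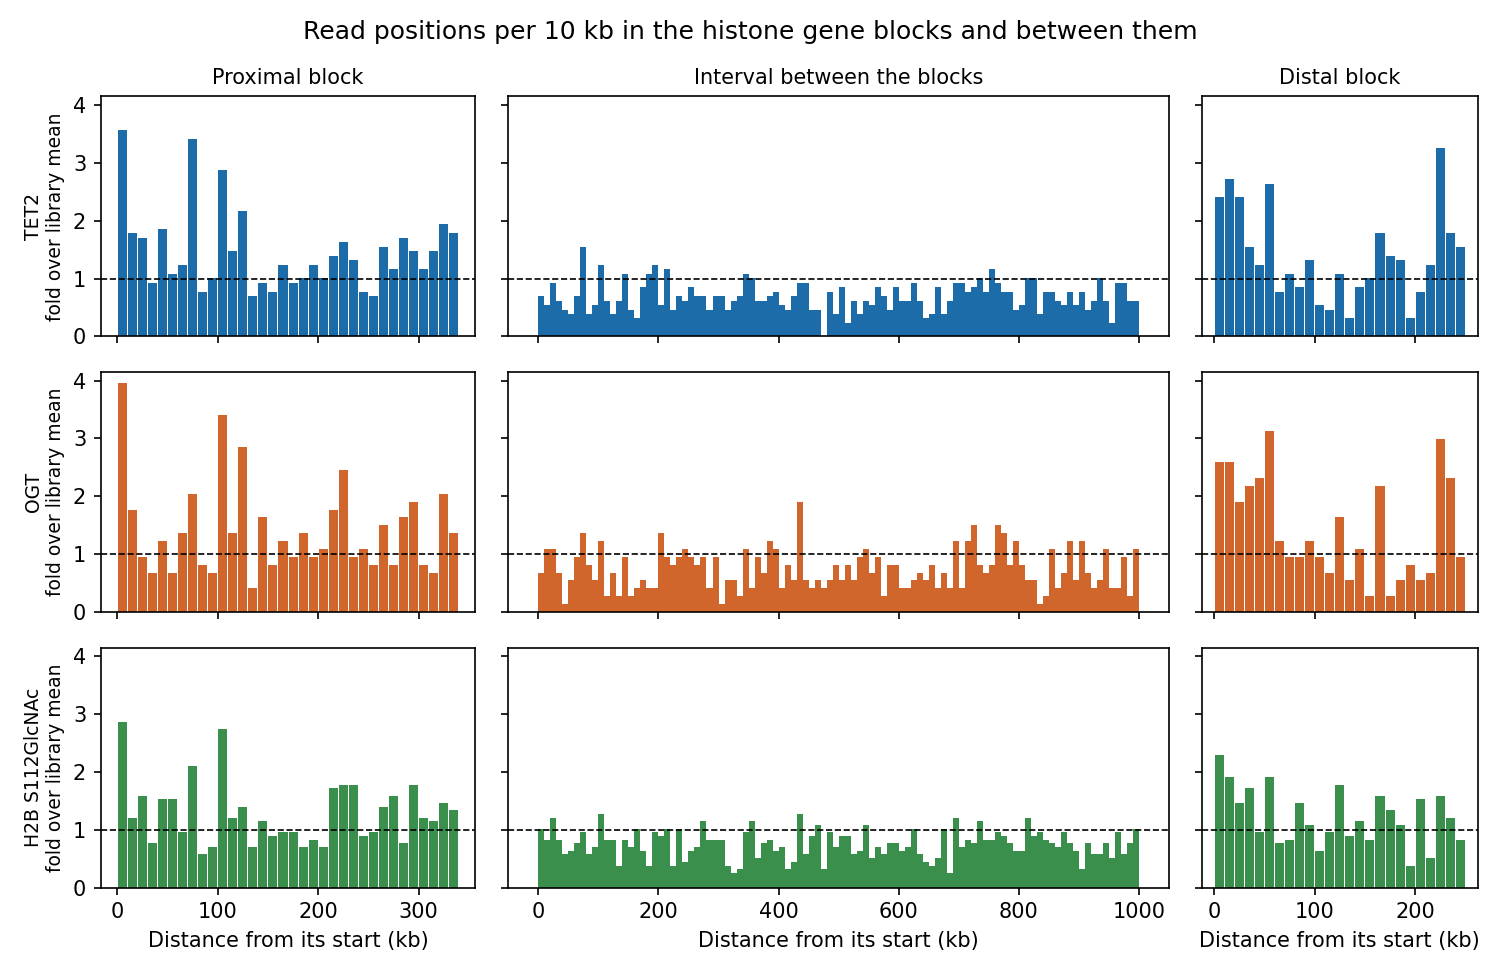
Positions per 10 kb (bars) as fold over the mean of each library (dashed line at 1), along the proximal block, the interval between the blocks and the distal block; x is the distance in kb from the start of each region, and the 3 regions differ in horizontal scale. The highest stretch of the proximal block is its first 10 kb, at 3.57-fold for TET2, 3.95-fold for OGT and 2.86-fold for H2B S112GlcNAc.

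The reads were unevenly spread within the blocks. The first 10 kb of the proximal block held 46 TET2, 29 OGT and 45 H2B S112GlcNAc positions, the highest values of that block for each library. The stretch from 21930001 to 21940000 held 9, 3 and 11, the lowest OGT value of the block. Of the 34 stretches of the proximal block, 4 reached 2-fold over the mean in TET2, 6 in OGT and 3 in H2B S112GlcNAc. Of the 25 stretches of the distal block, 5, 8 and 1 did. These are 11.8%, 17.6% and 8.82% of the proximal and 20%, 32% and 4% of the distal stretches. Over the genome 8.81%, 8.33% and 6.96% of 10 kb stretches reached 2-fold, and in the interval none of 100 did in any library. H2B S112GlcNAc in both blocks and TET2 in the proximal block thus showed no clear excess of such stretches over the genome.

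In the distal block TET2 was densest towards both ends. Its highest stretch, from 23835001 to 23845000, held 42 TET2 positions, and those starting at 23625001 and 23665001 held 35 and 34. The stretches starting at 23615001 and 23635001 held 31 each. The stretches starting at 23665001 and 23835001 were also the highest in OGT, with 23 and 22 positions. From 23715001 to 23765000 each 10 kb held at most 14 TET2 and 12 OGT positions, while H2B S112GlcNAc reached 28 there. H2B S112GlcNAc was the flattest of the 3 along this block, with a highest stretch of 2.29-fold against 3.26-fold in TET2 and 3.13-fold in OGT.

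Single bins well above the mean were frequent in the blocks. A bin was called high when its count passed a Poisson tail under the mean of its library, adjusted by Benjamini-Hochberg over all usable bins, of 0.01 and was at least 4-fold over that mean. This needed 8 positions in TET2, 7 in OGT and 9 in H2B S112GlcNAc, which is 6.21-fold, 9.54-fold and 5.72-fold. In TET2 27 of 590 bins were called (4.58%, 3.04 to 6.59), against 0.96% of the genome. For OGT the count was 16 (2.71%, 1.56 to 4.37), against 0.203% of the genome. For H2B S112GlcNAc it was 17 (2.88%, 1.69 to 4.57), against 0.559% of the genome. In the 1000 bins of the interval, 2 were called in TET2 and 0 in OGT and in H2B S112GlcNAc, where a count of 0 allows a share of up to 0.3% by the limit of 3 counts and 0.368% by the exact interval. Of the 2557590 bins of the genome, 1014 rank in the top 0.1% of all 3 libraries, and none lay in the blocks or the interval. Bins this rare would seldom fall among 590, so their absence is no trait of the blocks. With positions covered by more than 1 read left out, OGT had 7 called bins. At the depth of OGT, TET2 had 9 and H2B S112GlcNAc 2 called bins, and at an adjusted tail under 1e-05 the 3 libraries had 7, 1 and 1. The genome shares above belong to the main rule, so whether the blocks stay above the genome under these settings is not shown. Most bins held few positions: the median was 1 position in each library, and 183 bins had no TET2, 287 no OGT and 135 no H2B S112GlcNAc position.

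**Figure D2:**
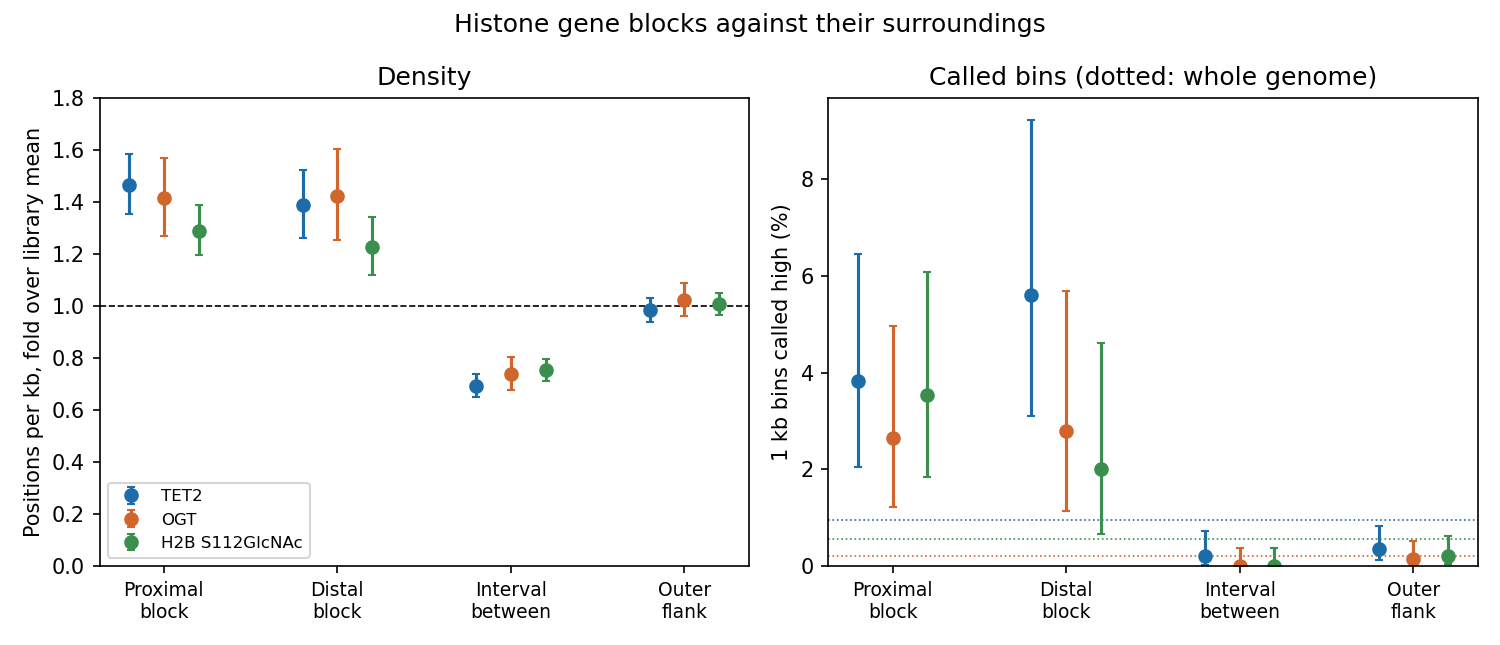
Left, positions per kb as fold over the mean of each library in the blocks, the interval between them and the outer flank; right, the percentage of 1 kb bins called high there, with dotted lines for the whole genome. Points are single libraries and bars are 95% exact intervals for counting error; both blocks lie above 1 and above the dotted lines in the 3 libraries, while the interval lies below 1.

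Called bins were partly common to the antibodies. Of 38 bins called in any library, 6 were called in all 3, 10 in a pair and 22 in 1, of which 11 were TET2 alone, 4 OGT alone and 7 H2B S112GlcNAc alone. Genome shares for these counts are not given here, so whether they are usual for called bins is not shown. OGT bins were called in TET2 in 12 of 16 cases (75.0%, 47.6 to 92.7), against 65.0% of OGT bins over the genome. TET2 bins were called in OGT in 12 of 27 cases (44.4%, 25.5 to 64.7), against 13.8% over the genome. H2B S112GlcNAc bins were called in TET2 in 10 of 17 cases (58.8%, 32.9 to 81.6), against 48.6%. OGT and H2B S112GlcNAc shared 6, which is 37.5% of the OGT bins (15.2 to 64.6, against 51.5% over the genome) and 35.3% of the H2B S112GlcNAc bins (14.2 to 61.7, against 18.8%). TET2 bins were called in H2B S112GlcNAc in 10 of 27 cases (37.0%, 19.4 to 57.6), against 28.3%. Of the 6 shares, that of TET2 bins called in OGT alone had an interval above its genome share, and with positions of 1 read alone the bins common to TET2 and OGT fell from 12 to 5, while TET2 and H2B S112GlcNAc had 8 in common.

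Peaks were then placed more finely. A peak is a run of touching 500 bp windows, set every 250 bp, that pass the rule used for bins, and its summit is the 100 bp step with the most positions within 150 bp. TET2 had 28 peaks (12 proximal, 16 distal), OGT 19 (11 and 8) and H2B S112GlcNAc 23 (16 and 7), with a median width of 750 bp in each. Of the 2358 windows of the blocks, 1.99% were called in TET2, 1.23% in OGT and 1.61% in H2B S112GlcNAc, against 0.341%, 0.0791% and 0.24% of the windows of the genome. TET2 peaks held 26.6% of the TET2 positions of the blocks, OGT peaks 24.1% of those of OGT, and H2B S112GlcNAc peaks 18.7% of theirs.

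Neighbouring summits were spaced unevenly. In TET2 the median of 26 spacings was 8650 bp, with 9 under 5 kb and 6 over 30 kb. In OGT the median of 17 was 22700 bp, with 5 under 5 kb and 6 over 30 kb. For H2B S112GlcNAc the median of 21 was 14150 bp, with 3 under 5 kb and 2 over 30 kb. By block, the proximal and distal medians were 22900 and 8550 bp in TET2, 23125 and 10700 bp in OGT and 17500 and 11275 bp in H2B S112GlcNAc. The shortest spacing was 1200 bp in TET2, 1250 bp in OGT and 1750 bp in H2B S112GlcNAc. Fewer reads leave fewer peaks and wider spacing, so the medians do not rank the antibodies: drawn down to the depth of OGT, TET2 had 13 peaks at a median spacing of 17600 bp and H2B S112GlcNAc 2. Measured against a local background in place of the library mean, 17 TET2, 9 OGT and 10 H2B S112GlcNAc peaks were left.

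The widest gaps of the 3 libraries in the proximal block overlapped. They ran from 21901851 to 22023101 in TET2 (121250 bp), from 21925201 to 22023101 in OGT (97900 bp) and from 21924001 to 22023101 in H2B S112GlcNAc (99100 bp). The summit at the far side was at 22023101 in all 3. Other wide proximal gaps were 60350 bp from 22066901 to 22127251 in both TET2 and OGT and 65350 bp from 21813601 to 21878951 in OGT. In the distal block the widest gap ran from 23714251 to 23775701 in TET2 (61450 bp), from 23666501 to 23775601 in OGT (109100 bp) and from 23667851 to 23837201 in H2B S112GlcNAc (169350 bp). With the positions of the 3 libraries summed, which gave 50 peaks at a median spacing of 5825 bp, the gaps were 73800 bp from 21925201 and 61300 bp from 23714301.

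There were 8 TET2 peaks that overlapped a peak of both other libraries, 7 of them in the proximal block. The share of such peaks over the genome is not given here. Their summits, with the TET2, OGT and H2B S112GlcNAc positions within 250 bp, were as follows. At 21802851 there were 10, 7 and 10, and at 21808501 and 21809751 there were 10, 7 and 9 and 8, 6 and 8. These 3 make a cluster of peaks within the first 10 kb of the block. At 21878951 there were 13 TET2, 10 OGT and 7 H2B S112GlcNAc positions. The peak at 22023101, on the far side of the gap, had 11, 8 and 14, the highest H2B S112GlcNAc value of both blocks. Its positions lay mostly on the plus strand, with 10 of 11 in TET2, 7 of 8 in OGT and 13 of 14 in H2B S112GlcNAc. Those at 22066901 and 22127251 had 9, 6 and 9 and 7, 7 and 8. The only one in the distal block, at 23622251, had 12, 7 and 11. An uneven strand split was not confined to 22023101. At 22127251 TET2 had 7 plus and 0 minus positions, and in the distal peak OGT had 7 and 0. Others went the other way, with 4 and 6 for TET2 at 22066901 and for OGT at 21878951.

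Of the 19 OGT peaks 15 overlapped a TET2 peak (78.9%, 54.4 to 93.9, against 59.2% of OGT peaks over the genome), and these are 53.6% of the 28 TET2 peaks (33.9 to 72.5, against 13.9%). TET2 and H2B S112GlcNAc had 14 in common. These are 50% of the TET2 peaks (30.6 to 69.4, against 31.5%) and 60.9% of the H2B S112GlcNAc peaks (38.5 to 80.3, against 40.3%). Both intervals include the genome share. OGT and H2B S112GlcNAc had 9 in common. These are 47.4% of the OGT peaks (24.4 to 71.1, against 48.4%) and 39.1% of the H2B S112GlcNAc peaks (19.7 to 61.5, against 14.4%). Summits of overlapping peaks were close. The median distance was 0 bp for TET2 and OGT, with 14 of 15 within 100 bp, and 25 bp for TET2 and H2B S112GlcNAc, with 11 of 14. For OGT and H2B S112GlcNAc it was 100 bp, with 7 of 9. With summit steps of 100 bp these distances are at the resolution.

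The strongest TET2 peaks were not all shared. The highest, at 21901851, had 15 TET2, 2 OGT and 5 H2B S112GlcNAc positions, which is 23.3-fold, 5.45-fold and 6.36-fold over the mean. It ended at 21902250, and an OGT and an H2B S112GlcNAc peak both began at 21902251. The peaks thus touched without overlapping, and no other window offset was tried. The OGT summit was at 21902501 and the H2B S112GlcNAc summit at 21902601. With the libraries summed these made a single peak from 21901501 to 21903000. The 1 kb bin from 21902001 held 8 TET2, 9 OGT and 8 H2B S112GlcNAc positions. The next TET2 peak by count, at 21878951, is the shared one above. Then 4 distal summits had 12 TET2 positions: 23622251 (shared), 23625951 with 9 OGT and 6 H2B S112GlcNAc, 23636501 with 6 and 2, and 23844351 with 1 and 4.

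The strongest OGT peak overlapped no TET2 or H2B S112GlcNAc peak, though TET2 was above its mean there. At 21925201 there were 11 OGT, 3 TET2 and 1 H2B S112GlcNAc positions, which is 29.97-fold, 4.66-fold and 1.27-fold. The OGT peak at 21878951 followed with 10. The next OGT summits, at 23626001 and 23775601, had 9 OGT positions each, with 10 and 9 of TET2 but 4 and 1 of H2B S112GlcNAc. The summits at 21902501, 22023101, 23666501 and 23843151 had 8 OGT positions each. Of these, 23666501 had 7 TET2 and 2 H2B S112GlcNAc positions, and 23843151 had 7 and 5.

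Among H2B S112GlcNAc peaks, 22023101 led with 14. Next came 23622251 and 23654101 with 11 each, then 21802851 and 21875201 with 10. At 23654101 there were 8 TET2 and 5 OGT positions, and at 21875201 there were 9 and 1. Of 4 H2B S112GlcNAc summits with 9 positions, that at 22037101 had 2 TET2 and 1 OGT, that at 23643351 had 5 and 0, and that at 23837201 had 7 and 1, while 22066901 is a shared one. Both blocks thus held H2B S112GlcNAc peaks with at most 1 OGT position. At this depth 1 OGT position within 250 bp of a summit is already 2.72-fold over the mean, so these are not places shown to lack OGT.

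**Figure D3:**
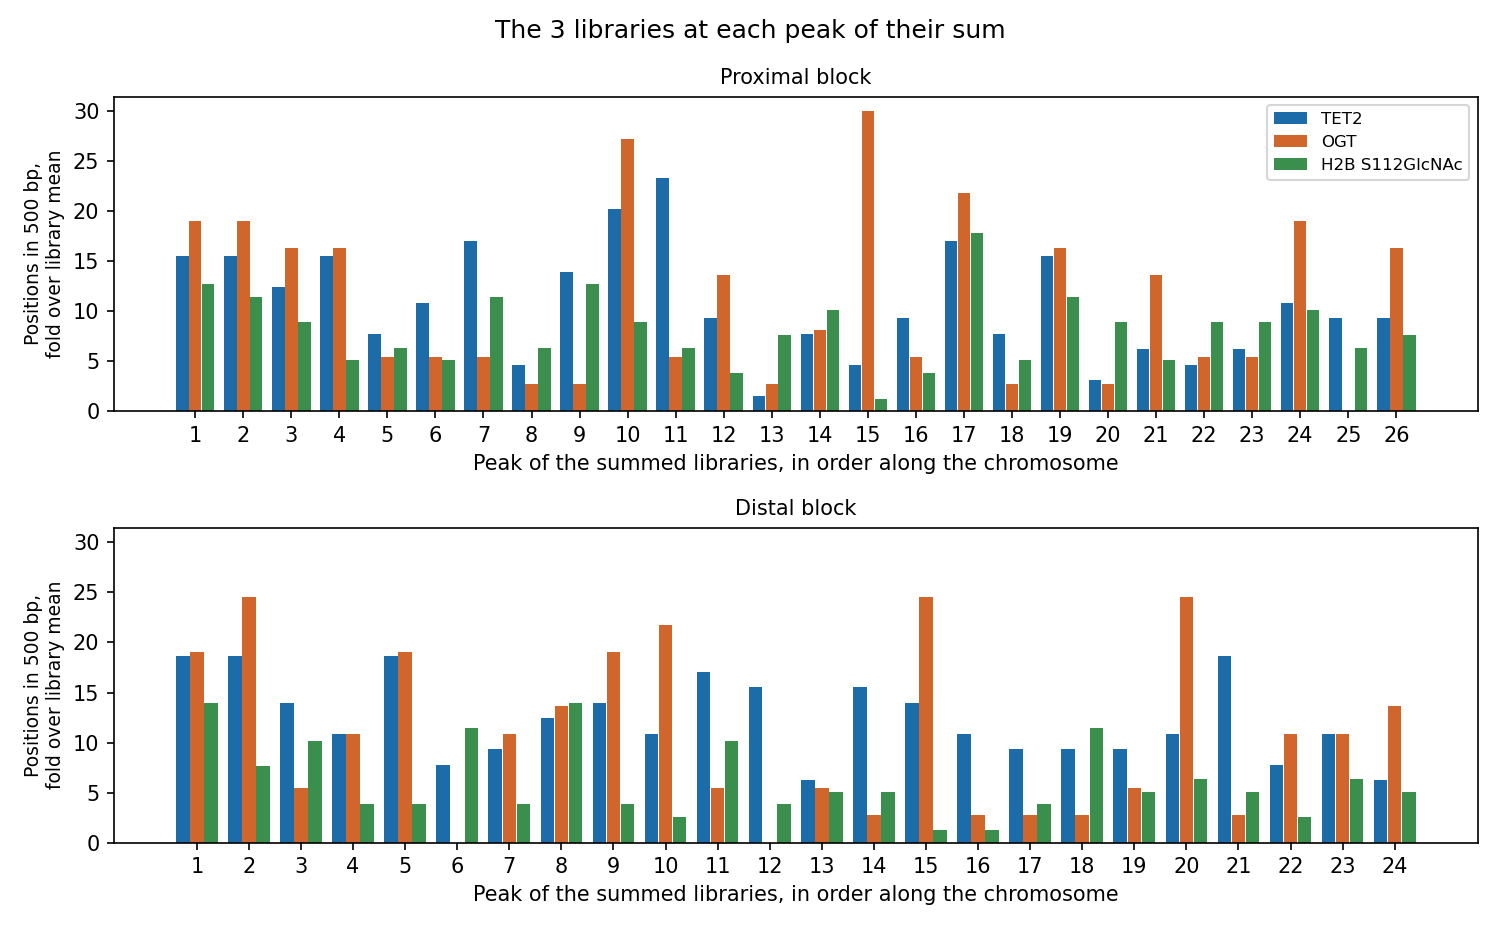
Positions within 250 bp of the summit of each of the 50 peaks of the summed libraries, as fold over the mean of each library (bars from 0), numbered along the proximal (26) and distal (24) block. The tallest bar is OGT at peak 15 of the proximal block, at 29.97-fold, where H2B S112GlcNAc is at 1.27-fold.

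Summed over whole blocks, the ratios between antibodies were near 1. Scaled to library size, TET2 over OGT was 1.04 (0.908 to 1.18) in the proximal and 0.976 (0.836 to 1.14) in the distal block. TET2 over H2B S112GlcNAc was 1.14 (1.02 to 1.27) and 1.13 (0.993 to 1.29), and OGT over H2B S112GlcNAc 1.10 (0.963 to 1.25) and 1.16 (0.994 to 1.35). Over both blocks the last 2 ratios were 1.13 (1.04 to 1.23) and 1.12 (1.02 to 1.24), so H2B S112GlcNAc rose least above its mean. In the interval the ratios were 0.939, 0.921 and 0.981. The fold of both blocks over the interval was 1.23 times as high in TET2 as in H2B S112GlcNAc (1.09 to 1.39), and 1.14 times as high in OGT (0.991 to 1.32), an interval that includes 1. TET2 over OGT gave 1.08 (0.928 to 1.25).

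At the 50 peaks of the summed libraries the gap to H2B S112GlcNAc was wider. They held 371 TET2, 201 OGT and 283 H2B S112GlcNAc positions within 250 bp. The scaled ratio was 1.60 (1.37 to 1.87) for TET2 over H2B S112GlcNAc, 1.52 (1.26 to 1.83) for OGT over H2B S112GlcNAc and 1.05 (0.883 to 1.25) for TET2 over OGT. The intervals of single peaks lay above 1 at 6 of 50 for TET2 over H2B S112GlcNAc, at 8 for OGT over H2B S112GlcNAc and below 1 at 0 for both. For TET2 over OGT they lay above 1 at 2 and below at 1. These peaks were chosen from the sum of the counts being compared.

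At summits chosen from 1 library, the reads of the other libraries give a measure that the choice did not use. Within 250 bp of the 28 TET2 summits the OGT density was 12.7 times (10.4 to 15.5) that in the rest of the blocks more than 1 kb away. For H2B S112GlcNAc it was 7.61 times (6.44 to 8.95). The OGT fold was 1.67 times the H2B S112GlcNAc fold (1.29 to 2.16). Around the 19 OGT summits the TET2 density was 11.1 times (9.29 to 13.2) and that of H2B S112GlcNAc 6.68 times (5.45 to 8.13) the rest, a ratio of 1.66 (1.27 to 2.17). Around the 23 H2B S112GlcNAc summits it was 9.20 times (7.71 to 10.9) in TET2 and 8.53 times (6.68 to 10.8) in OGT, a ratio of 1.08 (0.802 to 1.46). OGT positions ranged from 0 to 10 over the TET2 summits with a median of 6, and over the H2B S112GlcNAc summits from 0 to 10 with a median of 2.

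Away from the peaks of 1 library, whether the blocks were denser than the genome depended on the comparison. More than 1 kb from the 28 TET2 summits, 536.65 kb were left, where OGT and H2B S112GlcNAc were both at 1.06-fold of the library mean (0.957 to 1.16 and 0.989 to 1.13). Both intervals include 1. That mean includes the high bins of the genome. Like was therefore set against like, in an alternative chosen after seeing the data, by leaving out bins called in TET2 and their neighbours in the blocks and in the genome outside them. The 525 bins left in the blocks held 1.19 times the OGT density of the genome (1.08 to 1.31) and 1.16 times that of H2B S112GlcNAc (1.09 to 1.24). With bins called in OGT left out in the same way, TET2 was at 1.19-fold (1.11 to 1.27) and H2B S112GlcNAc at 1.15-fold (1.08 to 1.23). With bins called in H2B S112GlcNAc left out, TET2 was at 1.32-fold (1.24 to 1.41) and OGT at 1.33-fold (1.21 to 1.45). In each case bins called only in another library were kept, and empty bins were not matched. These values therefore do not show an excess spread evenly over the blocks.

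**Figure D4:**
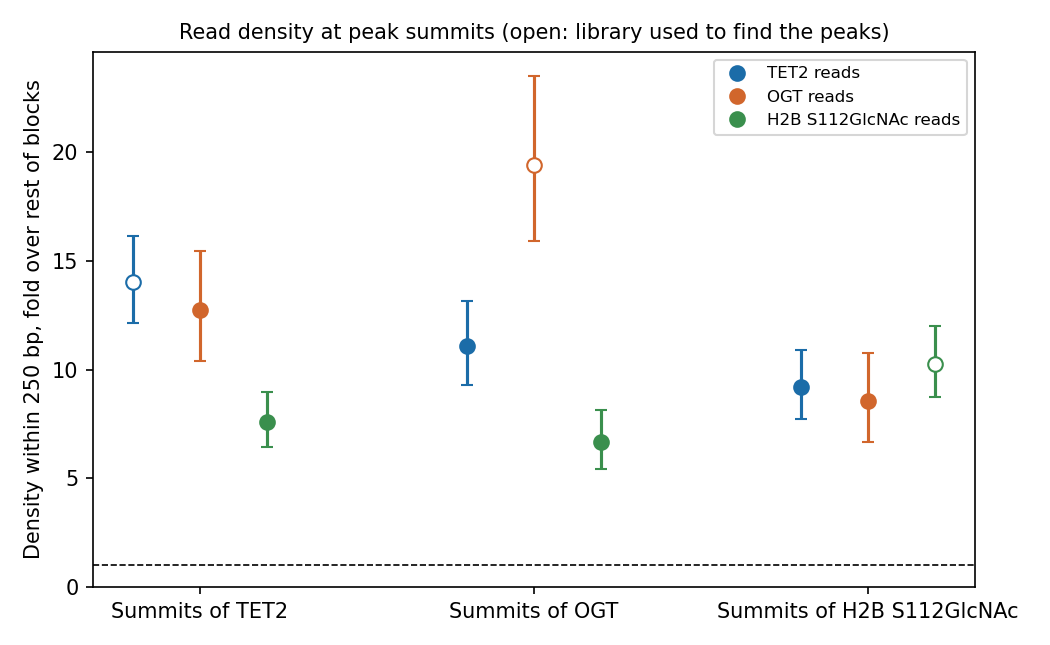
Density within 250 bp of peak summits as fold over the rest of the blocks, by the library that gave the summits (x) and the library of the reads (colour), with 95% exact intervals for counting error. Open points use 1 library for both and are no independent measure; among filled points H2B S112GlcNAc reads are lowest, at 7.61-fold and 6.68-fold.

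Few single bins differed between antibodies by the rule of size, which asks for 10 or more positions in the higher of both libraries, a scaled ratio of at least 2 and an interval that excludes 1. TET2 exceeded OGT in 2 of 20 bins with enough positions, against 10.3% of such bins in the genome, and was lower in 1 of 20, against 1.97%. Against H2B S112GlcNAc TET2 was higher in 3 of 20, against 19.3%, and lower in 1 of 20, against 2.2%. OGT was higher than H2B S112GlcNAc in 3 of 12, against 4.58%, and lower in 0, against 4.45%. With 12 to 20 bins these shares are imprecise.

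Bins with 10 or more positions in the higher of both libraries were then ordered by their ratio, and bins with fewer were left out. The order among the bins named is not settled, since their intervals overlap and ratios over 1 position are imprecise. For TET2 over OGT the 3 highest include the bin from 23673001. It held 10 TET2 positions, none of OGT and 3 of H2B S112GlcNAc. TET2 was 1.90-fold higher when the OGT count is set to the floor of 3, and the exact interval of the ratio starts at 1.28. The floor stands in for a count of 0 alone, and higher counts keep their ratio. The others were 21879001 to 21880000 with 12 against 1 (6.84, 1.01 to 292) and 23714001 to 23715000 with 11 against 1 (6.27, 0.911 to 270), whose interval includes 1. Among the lowest was 21925001 to 21926000, with 7 TET2 against 13 OGT (0.307, 0.104 to 0.827). The bins from 21878001 and 23775001 came next, both with 9 against 10 (0.513, 0.184 to 1.404).

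For TET2 over H2B S112GlcNAc the highest such bins started at 23636001 (12 against 3, a ratio of 4.88, 1.32 to 26.95), 23673001 (10 against 3, 4.07) and 23844001 (13 against 5, 3.17). The lowest of them started at 22037001 (2 against 12, 0.203, 0.0221 to 0.914), 22073001 (4 against 11, 0.444) and 21875001 (7 against 11, 0.777), of which the first alone met the rule. For OGT over H2B S112GlcNAc the highest of such bins started at 23775001 (10 against 1, 21.4, 3.05 to 930), 21925001 (13 against 2, 13.9, 3.15 to 127) and 21878001 (10 against 7, 3.06, 1.05 to 9.47). The lowest were the bins from 22037001, 21875001 and 22073001, at 0.179, 0.195 and 0.584, and their intervals include 1. The bins from 23775001, 21925001, 21878001, 22037001, 22073001, 21875001 and 23673001 each stand in more than 1 of these orders.

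Across the 590 bins the libraries rose and fell together more than in the interval. Pearson's r of log2(positions + 1) was 0.476 for TET2 and OGT, 0.512 for TET2 and H2B S112GlcNAc and 0.423 for OGT and H2B S112GlcNAc, with Spearman's rho of 0.374, 0.445 and 0.358. Over the 1000 bins of the interval r was 0.160, 0.217 and 0.156, and over the genome 0.322, 0.384 and 0.314. These are descriptions over bins that share base composition and the ease of aligning reads, and counting noise lowers them.

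Repeated reads set the OGT peaks apart. In the 19 OGT peaks 214 reads lay at 148 positions, so 30.8% were repeats, against 5.67% in the rest of the blocks. In TET2 peaks 3.65% were repeats (4.88% in the rest), and in H2B S112GlcNAc peaks 3.95% (4.90%). In 11 of the 19 OGT peaks the mean was at least 1.3 reads per position, and in 0 of the 28 TET2 and 0 of the 23 H2B S112GlcNAc peaks. The highest were 2.14 at 21808501, 2.13 at 23666501, where 1 position had 10 reads, and 2.00 at 23843151. The pattern was not special to the blocks: over the genome, outside bins extreme in all 3 libraries, 23.9% of OGT reads in called bins were repeats, against 7.11% in TET2 and 6.53% in H2B S112GlcNAc. Left with positions covered by 1 read alone, an alternative chosen after seeing the data, OGT had 7 called bins and 12 peaks, TET2 24 and 35 and H2B S112GlcNAc 14 and 20. Their part in the OGT peaks was not tested further.

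Plus-strand positions outnumbered minus-strand ones in the blocks, with 636 and 453 in TET2, 343 and 271 in OGT and 672 and 499 in H2B S112GlcNAc. The plus share was 58.4% (55.4 to 61.3), 55.9% (51.8 to 59.8) and 57.4% (54.5 to 60.2), against 56.4%, 54.2% and 57.5% in the interval and 52.5%, 52.5% and 52.6% over the genome. More positions were on the plus than on the minus strand in 21 of 28 TET2, 16 of 19 OGT and 17 of 23 H2B S112GlcNAc peaks. The genome share of such peaks is not given here, so whether these counts are usual for called peaks is not shown. The part of this strand excess in the peaks was not tested. The distance between strands also differed. Pairs of a plus-strand and a minus-strand 5′ end in the blocks were most frequent at 50 to 99 bp in TET2 (148 pairs, against 104 at 0 to 49 bp). In OGT and H2B S112GlcNAc they were most frequent at 0 to 49 bp, with 96 and 141 pairs against 36 and 83 at 50 to 99 bp. A distance of exactly 43 bp, the read length minus 1, was found in 17 OGT, 6 TET2 and 4 H2B S112GlcNAc pairs. Within 15 bp of it there were 91 OGT, 101 TET2 and 125 H2B S112GlcNAc pairs, against 69, 248 and 162 at 70 to 199 bp. Positions found in 2 libraries were few: 10 were common to TET2 and OGT, 9 to TET2 and H2B S112GlcNAc and 9 to OGT and H2B S112GlcNAc, of 1089, 614 and 1171 in the blocks.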

How the data were processed

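The files deposited by the authors list aligned reads, 1 per line and 44 bp long, of 3 libraries with 3832237 (TET2), 2179445 (OGT) and 4647963 (H2B S112GlcNAc) reads. The deposited score was 255 in each line read and holds no measurement. CASAVA 1.4, Bowtie 0.12.2 and build mm9 are listed, without their roles, per the submitters' processing notes. The sources used here do not say how reads matching several places were treated, and histone genes are near-identical copies, so reads within them may be missing or misplaced. Per the labels' protocols, ligation products of 200 to 600 bp were selected and given 20 PCR cycles.

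The OGT file names chromosomes by sequence identifiers of the same assembly. Positions and bins were counted on chromosomes 1 to 19 and X, in 10 kb stretches with a read in any library, giving means of 1.29, 0.734 and 1.57 positions per kb. Intervals are Poisson, Clopper-Pearson or conditional binomial (95%) and cover counting error alone, as PCR copies are not independent molecules. Named places were the 6 highest peaks per library with ties, peaks called in all 3, the widest gap per block and the 3 highest and lowest bin ratios per pair. Members and rules were chosen with earlier results of these data known. Python 3.11.15, NumPy 2.4.6, SciPy 1.17.1 and pandas 2.3.3 were used.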

Additional observations from a re-analysis of the deposited data

How the results depend on the processing

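No paired analysis was possible because there was only 1 library for any antibody. Of 212 values under 15 alternatives, 169 stayed within 1.5 times the reported value (counts, spacings) or within its 95% interval (others) and 43 moved. The 3 values that crossed 1 were TET2 over OGT, whose interval includes 1 in both blocks: 0.944 with each read counted in the proximal block (1.04 as reported), and 1.03 (scaled to the median 10 kb stretch) and 1.04 (scaled to the interval between the blocks) in the distal block (0.976). Values stand in the order TET2, OGT, H2B S112GlcNAc, or TET2 and OGT, TET2 and H2B S112GlcNAc, OGT and H2B S112GlcNAc for pairs.

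The fold over the library mean with each read counted was 1.31 (TET2) and 1.17 (H2B S112GlcNAc) in the proximal and 1.26 and 1.12 in the distal block, where the whole libraries hold more repeats than the blocks. With empty bins left out it was 1.55 and 1.37 in the distal block. The fold over the outer flank was 1.49, 1.38 and 1.28 in the proximal and 1.41, 1.39 and 1.22 in the distal block. Drawn down to the depth of OGT, the proximal H2B S112GlcNAc fold was 1.18, called bins were 9 (TET2) and 2 (H2B S112GlcNAc), shared bins 6, 0 and 1, peaks 13 and 2, the TET2 spacing 17600 bp and r of TET2 and H2B S112GlcNAc 0.390. At 8-fold, called bins were 11 and 2. With the adjusted tail under 1e-05 they were 7, 1 and 1. With each read counted TET2 and H2B S112GlcNAc shared 6. A local background of 10 kb and 50 kb left 17, 9 and 10 peaks at 28800, 60350 and 30800 bp. Without extreme bins the TET2 spacing was 5750 bp. In 5 kb bins r was 0.558, 0.576 and 0.491, and in 500 bp bins 0.439 for TET2 and H2B S112GlcNAc. With positions of 1 read alone, OGT had 7 called bins and 12 peaks, and 5 bins were common to TET2 and OGT and 2 to OGT and H2B S112GlcNAc, an alternative chosen after seeing the data. Lower depth and stricter rules lower counts by construction. For the other changes the cause was not tested. Genome shares of called bins under these settings are not given here. At OGT depth a 1 kb bin below 9.54-fold could not be called.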
